A study of Homo sapiens with 12 samples.

Results

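The interferon-stimulated genes described here are 39 named genes that type I interferon switches on in many human cells. They were looked up by symbol among the probe sets of an Affymetrix Human Genome U133 Plus 2.0 array series on U2OS cells, and each gene was read from its single-gene probe set with the highest mean over 12 arrays. Of the 39 genes, 38 had such a probe set, among 19775 genes in all. *STAT2* was not analysed here. A filter on low signals left 27 of the members among 13673 genes tested, and the other 11 members are described by their signals only. The members, and the lists of other pathway genes below, were chosen with earlier results of these data known. Shares set beside those of all genes are therefore descriptions, not tests of the set. Every array came from U2OS, an established line from a human osteosarcoma whose p53 gene is wild-type. Cells had received 0.6 µg/ml doxorubicin for 24 hours, against untreated cells, or 10 µM nutlin-3 for 24 hours, against cells in 0.1% DMSO for 24 hours. Each of these 4 groups had 3 arrays. No source used here says whether the 3 were separate cultures, so p-values measure the spread between these arrays, which may be technical. The series asks how the p53 response differs between an agent that breaks DNA through topoisomerase II, doxorubicin, and nutlin-3, which releases p53 from MDM2 without breaking DNA.

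Interferon-stimulated genes encode much of the cell's own defence against viruses. Sensors of foreign or misplaced nucleic acid, such as RIG-I (gene *DDX58*, now *RIGI*) and MDA5 (*IFIH1*), lead through IRF factors to secretion of interferon. Interferon binds its receptor and activates a STAT and IRF9 complex that binds the interferon-stimulated response element, or ISRE, in the promoters of these genes. Some of them also respond directly to IRF factors without interferon. DNA damage can raise such genes in some cell types, and p53 is known to act on several members of the pathway.

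The values are MAS5 signals, in arbitrary units on a linear scale, as the authors deposited them. Log2 changes were computed on signal + 16, so they understate the change of dim genes, and a gene was called when its limma p, adjusted over the 13673 genes, was under 0.05. Across these genes, pairs of arrays within a group had correlations of 0.98 to 0.991. Both agents raised the p53 target *CDKN1A*, with log2 changes of 2.47 for doxorubicin and 2.30 for nutlin-3. *MDM2*, also looked at as a check of the agents, rose less with doxorubicin, at 1.42, than with nutlin-3, at 2.14. Its difference was -0.72 (SE 0.10, limma adjusted p = 3e-05). The mesenchymal genes *COL1A1*, *SPARC*, *VIM* and *RUNX2* passed the filter, while the osteoblast enzyme gene *ALPL* and *COL1A2* did not. *RUNX2* was called lower with both agents and *COL1A1* higher with doxorubicin, at 0.26, and *SPARC* and *VIM* were called with neither agent. All 3 markers of plasmacytoid dendritic cells, which make much interferon in blood, stayed under the filter, with summed signals of 69.9 to 145.0 in doxorubicin arrays and 35.1 to 104 in untreated arrays. Summed signals of 4 leukocyte markers were 575 to 839 in doxorubicin arrays and 194 to 249 in untreated arrays, and 414 to 512 in nutlin-3 arrays and 136 to 220 in DMSO arrays. *LAPTM5* was called higher with both agents and *CD3D* with nutlin-3, while *PTPRC* and *TYROBP* were under the filter and not tested. *LAPTM5* alone averaged 509 in doxorubicin, 85.1 in untreated, 258 in nutlin-3 and 60.8 in DMSO arrays, so it weighs most in the sums of the treated arrays. Summed signals of 3 epithelial markers were 1401 to 1713 in doxorubicin arrays and 2005 to 2169 in untreated arrays, and 779.5 to 853 in nutlin-3 arrays and 1069 to 1247 in DMSO arrays. *EPCAM* was called lower with both agents and *KRT14* with doxorubicin, and *CDH1* was not called, with changes of 0.20 and 0.39. *KRT14* was also called lower in DMSO than in untreated arrays, at -1.79. As a sign of RNA quality, the signal near the 3' end of *ACTB* over that near its 5' end was 3.12 ± 0.577 in doxorubicin arrays and 1.53 ± 0.0754 in untreated arrays (SD, n = 3). It was 1.31 ± 0.026 in nutlin-3 arrays and 1.28 ± 0.0281 in DMSO arrays. For *GAPDH* it was 1.07 ± 0.116 in doxorubicin arrays and 1.02 ± 0.0356 in untreated arrays. For the dap control probe sets, it was 5.79 ± 2.54 in doxorubicin arrays, with 8.51 on doxorubicin array 3, and 2.71 ± 0.279 in untreated arrays. It was 2.51 ± 0.0487 in nutlin-3 arrays and 2.63 ± 0.0237 in DMSO arrays. These probe sets read an added bacterial RNA, so their ratio does not read the quality of the cells' own RNA. The part of these markers and of these 3' to 5' ratios in the changes below was not tested. Since RNA came from whole cultures, fewer cells with a transcript and less transcript per cell cannot be told apart.

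The promoters are shown because members with the same response element moved in opposite directions. RefSeq windows of 250 bases before to 50 bases after a gene's start (GRCh38.p14) were found for 32 of the 39 members. The ISRE core GAAANNGAAA was searched on both strands, with overlapping matches kept, and it lay in a window of 21 of these 32 genes. It lay in 3.57% of all 35116 windows, or for 4.38% of 27305 genes, some of which have several. Among members called higher with doxorubicin it was found for 6 of the 9 with a window, and among those called lower for 4 of 5. It was also found for 6 of 9 members not called and for 5 of 9 not tested. All bases from 250 before the start to the start are printed for 2 genes that rose with doxorubicin and 1 that fell, 5′ to 3′ on the gene's strand, with ISRE cores in capitals. *ISG15* lies on the plus strand (chr1:1013247-1013496), *IFI6* on the minus strand (chr1:27672193-27672442) and *IFIT1* on the plus strand (chr10:89392373-89392622).
ISG15: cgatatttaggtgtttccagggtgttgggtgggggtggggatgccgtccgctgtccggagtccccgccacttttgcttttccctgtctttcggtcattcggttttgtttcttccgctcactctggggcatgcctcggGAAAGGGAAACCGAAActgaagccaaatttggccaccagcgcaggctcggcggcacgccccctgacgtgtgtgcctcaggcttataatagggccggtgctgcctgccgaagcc
IFI6: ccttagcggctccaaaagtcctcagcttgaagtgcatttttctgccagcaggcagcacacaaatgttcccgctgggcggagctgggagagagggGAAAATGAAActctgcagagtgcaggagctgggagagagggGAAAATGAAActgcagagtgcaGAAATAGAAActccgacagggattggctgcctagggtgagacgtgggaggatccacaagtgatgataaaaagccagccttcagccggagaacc
IFIT1: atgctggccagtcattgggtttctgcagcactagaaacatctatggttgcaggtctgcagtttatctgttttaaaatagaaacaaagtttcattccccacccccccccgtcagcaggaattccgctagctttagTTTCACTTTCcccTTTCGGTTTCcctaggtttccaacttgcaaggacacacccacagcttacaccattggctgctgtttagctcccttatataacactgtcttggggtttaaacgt

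In *ISG15* the cores overlap and read 5′ to 3′ on the gene's strand, *IFI6* holds 3 of them, and in *IFIT1* a pair lies on the opposite strand. Stretches of 60 bases with the core nearest the start follow for 3 more genes that rose with doxorubicin, *PARP14* (chr3:122680779-122680838, plus strand), *OAS3* (chr12:112938414-112938473, plus strand) and *IFIH1* (chr2:162318685-162318744, minus strand), and for 3 that fell, *IFI44* (chr1:78649729-78649788, plus strand), *SAMD9* (chr7:93118081-93118140, minus strand) and *DDX60* (chr4:168318771-168318830, minus strand).
PARP14: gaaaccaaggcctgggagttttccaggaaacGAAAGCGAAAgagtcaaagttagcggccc
OAS3: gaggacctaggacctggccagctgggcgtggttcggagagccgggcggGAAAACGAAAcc
IFIH1: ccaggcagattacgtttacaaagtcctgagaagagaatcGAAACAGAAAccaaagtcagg
IFI44: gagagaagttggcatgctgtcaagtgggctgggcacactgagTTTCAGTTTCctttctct
SAMD9: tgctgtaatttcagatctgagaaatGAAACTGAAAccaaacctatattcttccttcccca
DDX60: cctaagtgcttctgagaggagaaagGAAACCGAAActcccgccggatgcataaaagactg

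The core ends near the start in *PARP14*, *OAS3*, *IFIH1* and *IFI44*, and the stretch of *SAMD9* lies farther upstream. A match is a description of these letters and was not tested as a site. The GAS core TTCNNNGAA, which binds STAT dimers, lay in a window of 11 of the 32 genes, *IRF1* and *PARP14* among them. It lay in 7.66% of all windows, or for 9.38% of all genes. The p53 half-site consensus, a decamer, lay in a window of 3 of the 32 genes, where it lay in 6.63% of all windows, or for 8.06% of all genes. So few matches lie close to the share of all genes. These 3 were *ISG15*, *DDX58* and *IFIT3*, which were called higher with doxorubicin. The calls of *DDX58* and *IFIT3* were lost against DMSO arrays. A half-site match is not a full p53 site, and a link between this match and the calls was not tested.

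With doxorubicin the interferon-stimulated genes went both ways. *ISG15*, *PARP14*, *IRF1*, *CMPK2*, *IFI6*, *IFIH1* and *OAS3* rose by more than 1 on the log2 scale, and *IFIT1*, *IFI44* and *SAMD9* fell by more than 1. Of the 27 members tested, 10 rose and 6 fell, which is 59.3% called, where 55.7% of all genes tested were called (30.1% higher and 25.6% lower). The median log2 change of the 27 was 0.05, against 0.08 over all genes tested. With each array centred on its median, 9 members rose and 9 fell, and the median of all genes moved to -0.10. That scaling added *IFI16*, *IRF9* and *IFIT5* to the genes called lower and lost the call of *IFIT3*. At 2-fold or more 10 of the 27 members were called, where 2257 of the 13673 genes tested (16.5%) were. Treated and untreated arrays did not overlap for 16 of the 27 members, against 58.9% of all genes.

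Among the sensors, *IFIH1* and *DDX58* rose and *IFI16* was not called. *IFIH1*, which encodes the sensor of long double-stranded RNA, had signals of 229, 176 and 221 in doxorubicin arrays and 66.1, 126 and 77.1 in untreated arrays. All treated arrays lay above all untreated ones, and the log2 change was 1.12 (SE 0.24, adjusted p = 0.00063). *DDX58*, whose product detects short RNA ends, averaged 403 ± 37.1 in doxorubicin arrays and 267 ± 12.6 in untreated arrays (SD, n = 3), a change of 0.56 (SE 0.14, adjusted p = 0.0028). This call of *DDX58* did not hold against DMSO arrays, nor with the mean of its probe sets. It did not hold with a probe set of another type either, where the change was 0.11. Yet another *DDX58* probe set had 0.25 (SE 0.25, adjusted p = 0.45) in a limma fit of all probe sets, not called. *IFI16*, a nuclear DNA sensor, had signals of 1104, 1044 and 1076 in doxorubicin arrays and 1098, 1279 and 1178 in untreated arrays. These overlapped, and the change of -0.14 (SE 0.08, adjusted p = 0.17) was not called, though another *IFI16* probe set fell at -0.73 (SE 0.18, adjusted p = 0.0037) and the gene was called lower at -0.32 with arrays centred on their medians.

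Of the transcription factors, *IRF1* rose. It encodes an activator of interferon-stimulated and antigen presentation genes, and its signals were 659, 636 and 697 in doxorubicin arrays and 192, 254 and 193 in untreated arrays. The groups lay far apart, with a log2 change of 1.58 (SE 0.15, adjusted p = 1.1e-07), and the other *IRF1* probe set changed by 1.65. *IRF9*, the DNA-binding subunit of the interferon-activated complex, averaged 428 ± 125 in doxorubicin arrays and 505 ± 64 in untreated arrays (SD, n = 3). Its arrays overlapped and it was not called, with a change of -0.26 (SE 0.17, adjusted p = 0.2).

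*ISG15*, a ubiquitin-like modifier joined to other proteins, had the largest rise of all 27 members. Its signals were 4492, 3987 and 4763 in doxorubicin arrays and 638, 650.4 and 654 in untreated arrays, so the lowest treated array was several times the highest untreated one. The log2 change was 2.74 (SE 0.10, adjusted p = 1.3e-12). Of the enzymes that handle this modifier, the ligase gene *HERC5* was under the filter, and the conjugating enzyme gene *UBE2L6*, from the pathway list and named after its values were seen, rose by 0.41 (SE 0.16, adjusted p = 0.043). Neither *HERC6* nor *USP18* was called. *HERC6*, a relative of *HERC5*, had a change of 0.36 (SE 0.20, adjusted p = 0.13), and *USP18*, which encodes the protease that removes the modifier, had -0.59 (SE 0.46, adjusted p = 0.29).

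In the IFIT family, whose proteins bind foreign RNA, 1 of 3 tested genes was called higher and 1 lower. *IFIT1* had signals of 76.0, 67.3 and 117 in doxorubicin arrays and 348, 331 and 339 in untreated arrays. All treated arrays lay far below the untreated ones, and the log2 change of -1.82 (SE 0.17, adjusted p = 1.2e-07) was the largest fall among the 27 members. *IFIT3*, whose protein stabilises that of *IFIT1*, averaged 164 ± 36.3 in doxorubicin arrays and 93.1 ± 29.2 in untreated arrays (SD, n = 3) and rose by 0.74 (SE 0.22, adjusted p = 0.0086). Against DMSO arrays its change was 0.15 and the call was lost, and without untreated replicate 1 the call was lost too. Its other probe set changed by 0.40 (SE 0.20, adjusted p = 0.11) and was not called. *IFIT5* was not called and had a change of -0.16 (SE 0.12, adjusted p = 0.28).

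All 3 tested genes of the OAS and nucleotide enzymes rose with doxorubicin. *OAS3*, an oligoadenylate synthetase that turns on RNase L, had signals of 508, 345 and 357 in doxorubicin arrays and 178, 199 and 169 in untreated arrays. Doxorubicin array 1 stood highest and no treated array reached down to an untreated one, with a log2 change of 1.07 (SE 0.20, adjusted p = 0.00023). *OASL*, an OAS relative without that activity, averaged 265 ± 19.2 in doxorubicin arrays and 125 ± 8.35 in untreated arrays (SD, n = 3), a change of 0.99 (SE 0.20, adjusted p = 0.0005). The signals of *CMPK2*, a mitochondrial nucleotide kinase gene, were 413, 376 and 304 in doxorubicin arrays and 115, 113 and 116 in untreated arrays. The untreated values lay close together and well below, and the log2 change was 1.53 (SE 0.18, adjusted p = 2e-06).

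Of 5 tested genes of membrane proteins and dynamin-like GTPases, 1 was called with doxorubicin. *IFITM2*, whose protein blocks fusion of viruses with the cell membrane, averaged 1690.1 ± 205 in doxorubicin arrays and 2103 ± 65.8 in untreated arrays (SD, n = 3). It was called lower at -0.32 (SE 0.11, adjusted p = 0.017), a call that was lost without doxorubicin replicate 2 or untreated replicate 2. *IFITM3* had a change of -0.03 (SE 0.09), *IFITM1* of 0.49 (SE 0.27), the tetherin gene *BST2* of -0.54 (SE 0.39) and *MX2* of 0.05 (SE 0.39), and none of them was called, though the SEs of *IFITM1*, *BST2* and *MX2* leave room for changes as large as those called elsewhere. The 3 IFITM genes are close relatives each read through probe sets of the _x_at and _s_at types, which can take up RNA of a relative.

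The IFI genes moved apart. *IFI6*, which encodes a small membrane protein that opposes cell death, had signals of 1687, 1737 and 1730.2 in doxorubicin arrays and 618, 567 and 608 in untreated arrays. Each group was tight and the log2 change was 1.50 (SE 0.11, adjusted p = 4.7e-09). *IFI44*, a cytoplasmic antiviral protein gene, had signals of 108, 144 and 158 in doxorubicin arrays and 426, 519.5 and 383 in untreated arrays. No treated array reached the untreated range, and the change was -1.59 (SE 0.15, adjusted p = 1.5e-07), with -0.78 for its other probe set, also called. Its neighbour *IFI44L* had signals of 100.2, 94.0 and 89.1 in doxorubicin arrays and 89.2, 119.6 and 98.7 in untreated arrays. These overlapped, with a change of -0.09 (SE 0.30, adjusted p = 0.81).

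*SAMD9* and its neighbour *SAMD9L*, which encode antiviral proteins that restrain growth, both fell. *SAMD9* had signals of 98.3, 151 and 105 in doxorubicin arrays and 379, 427 and 316 in untreated arrays. The treated arrays lay below all untreated ones, with a change of -1.55 (SE 0.15, adjusted p = 2e-07), and its other probe set had a change of -0.28 and was not called. *SAMD9L* averaged 109 ± 17.7 in doxorubicin arrays and 174 ± 34.7 in untreated arrays (SD, n = 3), a change of -0.59 (SE 0.18, adjusted p = 0.011), and its call was lost without untreated replicate 1. *DDX60*, a helicase gene, was called lower at -0.79 (SE 0.19, adjusted p = 0.0022), but against DMSO arrays its change was -0.16 and the call was lost. *PARP14*, which encodes a mono-ADP-ribosyltransferase, had signals of 879.7, 947 and 1273 in doxorubicin arrays and 312, 267 and 259 in untreated arrays. Doxorubicin array 3 was highest, no array overlapped, and the change was 1.81 (SE 0.13, adjusted p = 6.8e-09). *PARP9*, a relative in the same gene cluster, was not called at 0.06 (SE 0.12, adjusted p = 0.7), while its other probe set fell, at -0.74 (SE 0.16, adjusted p = 0.0015).

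**Figure D1:**
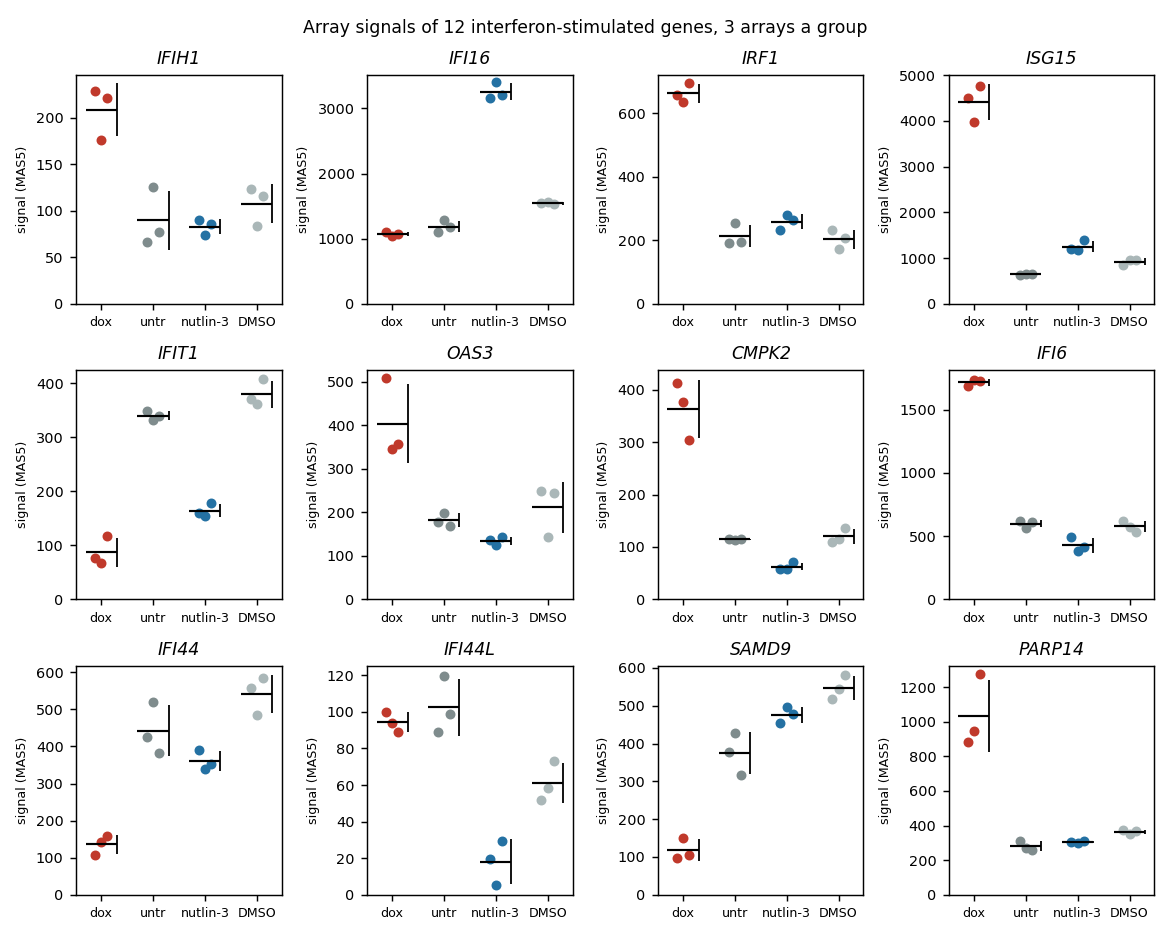
MAS5 signal (linear y axis from 0, a scale of its own in each panel) on each of the 3 arrays of the doxorubicin (dox), untreated (untr), nutlin-3 and DMSO groups, for the 12 members called with an absolute log2 change of at least 1 with either agent. Points are arrays, horizontal lines group means and vertical lines 1 SD each way. In the *ISG15* panel the doxorubicin arrays lie at 3987 to 4763 and the nutlin-3 arrays at 1178 to 1385, with the other groups below.

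With nutlin-3 the set again went both ways. *IFI16* rose the most and *IFI44L* and *IFIT1* fell the most among called members. Of the 27 members 4 rose and 6 fell, which is 37% called, where 26.4% of all genes tested were called (12.5% higher and 13.9% lower). The median log2 change of the members was -0.20, against 0.01 over all genes tested. At 2-fold or more 3 of the 27 members were called, where 621 of the 13673 genes tested (4.54%) were. Arrays did not overlap for 14 of the 27, against 43.1% of all genes.

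*IFI16* had signals of 3168, 3404 and 3208 in nutlin-3 arrays and 1542, 1570.4 and 1527 in DMSO arrays. Each treated array lay near 2 times the DMSO level, and the log2 change was 1.07 (SE 0.08, adjusted p = 5.1e-08). Its other probe sets rose too, by 1.02 and 1.16. Of the other sensors, *DDX58* averaged 520.4 ± 48.2 with nutlin-3 and 338 ± 69.1 in DMSO (SD, n = 3), a change of 0.61 (SE 0.14, adjusted p = 0.0036). That rise was seen with its highest probe set only, and its other probe sets had changes of 0.00 and -0.33, neither called. *IFIH1* had signals of 89.7, 73.6 and 85.1 in nutlin-3 arrays and 123, 83.6 and 116 in DMSO arrays, which overlapped, with a change of -0.31 (SE 0.24, adjusted p = 0.38).

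*ISG15* had signals of 1192, 1178 and 1385 in nutlin-3 arrays and 836, 963 and 966 in DMSO arrays. The groups were apart, with a small rise of 0.43 (SE 0.10, adjusted p = 0.003). *USP18* had signals of 38.3, 87.6 and 9.74 in nutlin-3 arrays and 109.6, 107 and 109.9 in DMSO arrays, a log2 change of -1.25 (SE 0.46, adjusted p = 0.057) that missed the threshold, with treated arrays that differ widely. *IRF1* had 234, 279.5 and 264 in nutlin-3 arrays and 232, 171 and 206 in DMSO arrays. All treated arrays lay above the DMSO arrays by a small margin, and the gene was not called, with a change of 0.33 (SE 0.15, adjusted p = 0.11).

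*IFIT1* had signals of 160.4, 154 and 178 in nutlin-3 arrays and 369.9, 361 and 407 in DMSO arrays. These did not overlap, and the log2 change was -1.13 (SE 0.17, adjusted p = 8e-05). *IFI44* had 389.9, 338 and 352 in nutlin-3 arrays and 558, 484 and 584 in DMSO arrays, a change of -0.57 (SE 0.15, adjusted p = 0.011). The *IFI44* groups lay apart, but the call was lost without DMSO replicate 3 and against untreated arrays, where the change was -0.28. *IFI44L* had signals of 19.7, 5.22 and 29.6 in nutlin-3 arrays and 51.7, 58.6 and 73.1 in DMSO arrays. The treated arrays lay under the filter signal of 49.3, so the size of the change, -1.23 (SE 0.30, adjusted p = 0.0058), depends on the constant added: it was -1.96 when 1 was added and -0.61 when 64 was.

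*CMPK2*, *IFI6* and *OAS3* were lower with nutlin-3, the opposite of their direction with doxorubicin. *CMPK2* had signals of 58.0, 58.2 and 70.7 in nutlin-3 arrays and 109.5, 115 and 136 in DMSO arrays. No arrays overlapped, and the change was -0.80 (SE 0.18, adjusted p = 0.0035). *IFI6* had 494, 379 and 411 in nutlin-3 arrays and 618, 576 and 535 in DMSO arrays. The groups were again apart, at -0.42 (SE 0.11, adjusted p = 0.0072). For *OAS3* the signals were 135, 124 and 143 in nutlin-3 arrays and 248, 144 and 243 in DMSO arrays. DMSO array 2 lay close to the treated arrays, and the change of -0.57 (SE 0.20, adjusted p = 0.046) was past the threshold by a small margin, a call lost in 18 of 28 alternative settings, among them each fit that left out 1 nutlin-3 array.

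*IFITM2* rose with nutlin-3, averaging 3836 ± 416 with nutlin-3 and 2807 ± 277 in DMSO (SD, n = 3), a change of 0.45 (SE 0.11, adjusted p = 0.0045). *SAMD9* had signals of 454, 495 and 478 in nutlin-3 arrays and 517, 544 and 582 in DMSO arrays, with a change of -0.20 (SE 0.15, adjusted p = 0.39). *PARP14* had signals of 305, 300.1 and 309 in nutlin-3 arrays and 374, 350.7 and 369 in DMSO arrays, with a change of -0.25 (SE 0.13, adjusted p = 0.2). Neither was called, although the arrays of each lay slightly below those in DMSO without overlap. The other members not called with nutlin-3 had changes of -0.44 for *BST2* to 0.89 for *MX2*.

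**Figure D2:**
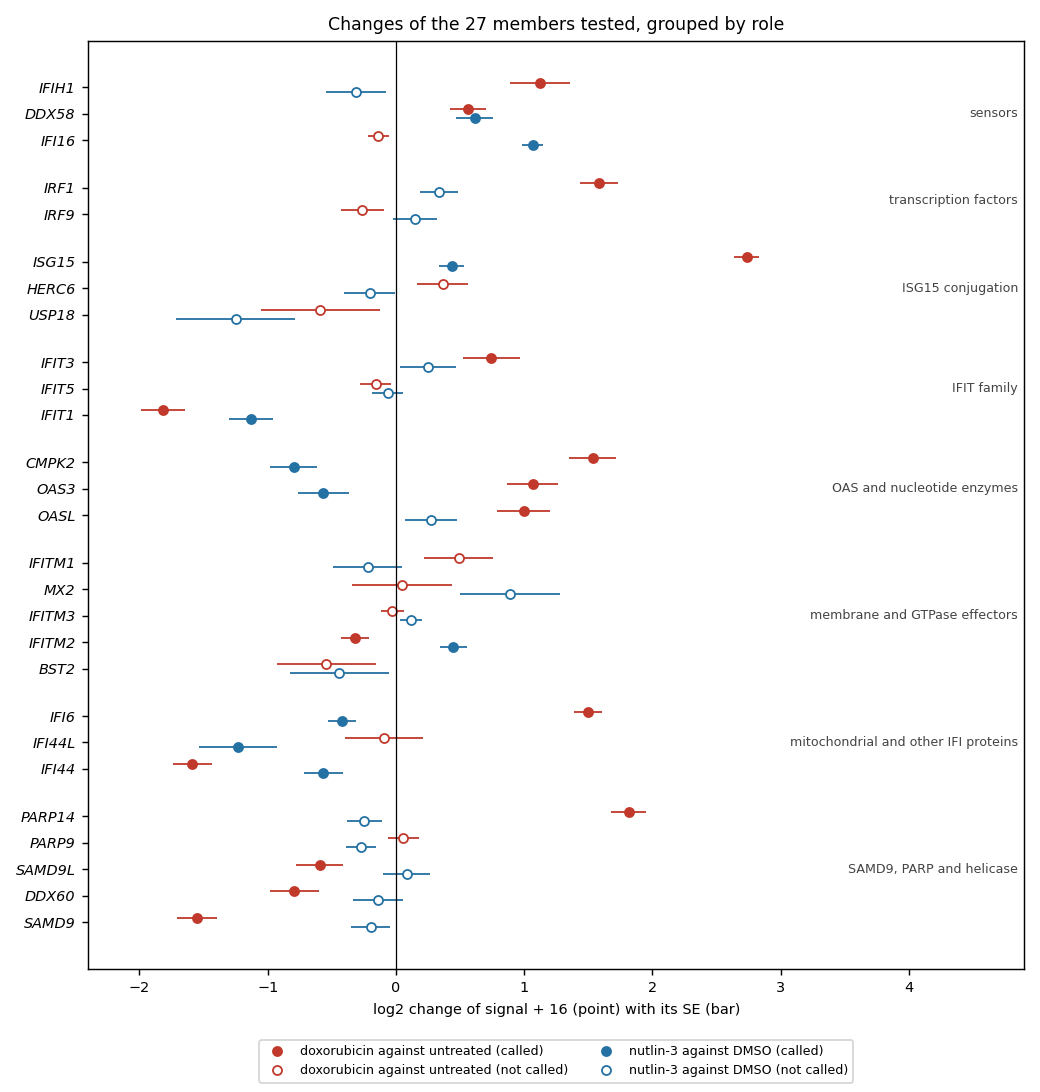
Log2 change of signal + 16 with doxorubicin against untreated cells (red) and with nutlin-3 against DMSO (blue) for the 27 members tested, grouped by role down the page. Points are the fitted changes, bars their SE, and filled points were called at an adjusted p under 0.05. *ISG15* stands farthest to the right at 2.74 and *IFIT1* farthest to the left at -1.82, both with doxorubicin.

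A test of the difference, the doxorubicin change minus the nutlin-3 change, called 14 of 27 members, 8 of them more positive with doxorubicin and 6 more negative, where 39.5% of all genes were called (21.8% more positive and 17.7% more negative). The largest were *CMPK2* at 2.33 (SE 0.26, adjusted p = 3e-06), *ISG15* at 2.30 (SE 0.14, adjusted p = 4.3e-09) and *PARP14* at 2.06 (SE 0.19, adjusted p = 4e-07). Their order was not tested, and over the alternative settings *CMPK2* ran from 1.80 to 2.59 and *ISG15* from 2.15 to 2.38. *IFI6* had a difference of 1.92 (SE 0.15, adjusted p = 8.2e-08) and *OAS3* of 1.63 (SE 0.28, adjusted p = 0.00023). *IFIH1* differed by 1.43 (SE 0.33) and *IRF1* by 1.25 (SE 0.21), and both calls held in every alternative setting run. No setting read the other *IRF1* probe set alone, and in a limma fit of all probe sets it had a difference of 1.04 (SE 0.44, adjusted p = 0.088), not called. The most negative differences were those of *SAMD9* at -1.35 (SE 0.22, adjusted p = 0.00011), *IFI16* at -1.20 (SE 0.12, adjusted p = 6.9e-07) and *IFI44* at -1.02 (SE 0.22, adjusted p = 0.0012). With probe sets of other types *IFI44* had a difference of 0.17, so its call rests on the choice of probe set. In the fit of all probe sets the other *SAMD9* probe set had a difference of -0.46 (SE 0.32, adjusted p = 0.31) and was not called. *IFITM2* differed by -0.77 (SE 0.15). The differences of *IFIT1*, -0.69 (SE 0.24, adjusted p = 0.033), *SAMD9L*, -0.68 (SE 0.26, adjusted p = 0.048), and *IFI44L*, 1.14 (SE 0.43, adjusted p = 0.045), passed by a small margin. Alternative settings lost the call of *IFIT1* 12 times, that of *SAMD9L* 14 times and that of *IFI44L* 17 times. *DDX58*, called higher with each agent, had a difference of -0.05 (SE 0.20, adjusted p = 0.87), and its SE leaves room for a difference of either sign.

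Because each agent had control arrays of its own, calls with both could be counted. Of the 27 members 8 were called with both agents, 29.6% of them, where 19.3% of all genes were. Directions were opposite for 4 members, 14.8% of the 27, where 3.61% of all genes were called in opposite directions. As a share of those called with both agents, that is 50% of members and 18.7% of all genes. *CMPK2*, *IFI6* and *OAS3* were higher with doxorubicin and lower with nutlin-3, and *IFITM2* was lower with doxorubicin and higher with nutlin-3. *ISG15* and *DDX58* rose and *IFIT1* and *IFI44* fell with both. Of the 4 opposite members, *OAS3* rests on the marginal nutlin-3 call and *IFITM2* on the doxorubicin call lost without single arrays, both given above. Of the members lower with both, *IFI44* rests on a nutlin-3 call that was lost against untreated arrays. Of those higher with both, *DDX58* rests on its highest probe set, and its other probe sets were called with neither agent.

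**Figure D3:**
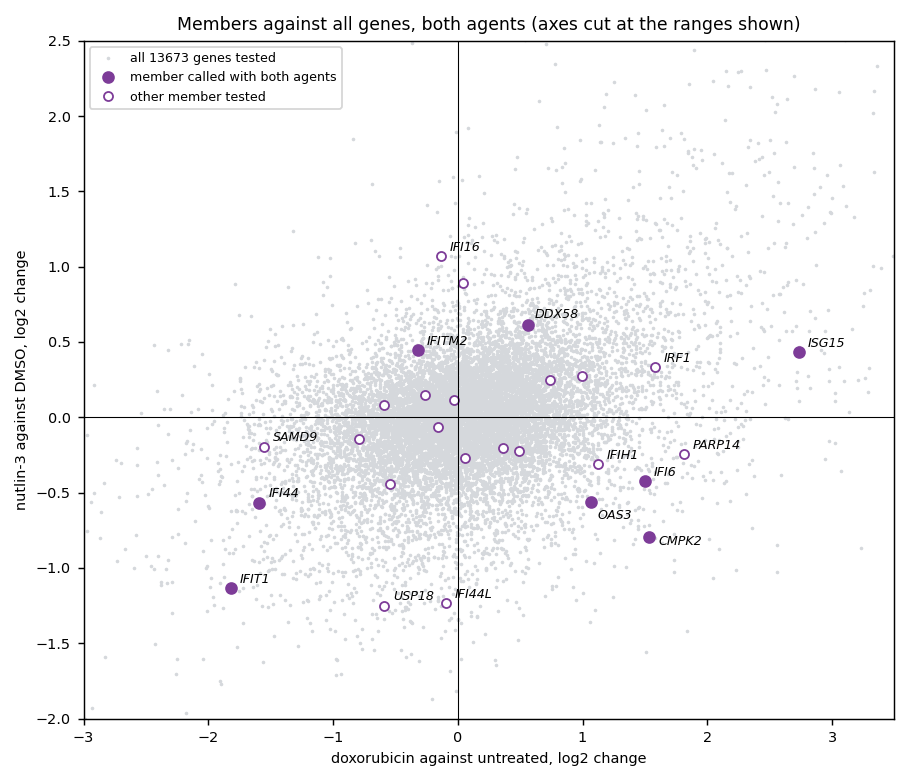
Log2 change with doxorubicin against untreated cells (x axis) and with nutlin-3 against DMSO (y axis) for all 13673 genes tested (grey points) and the 27 members (purple, filled where called with both agents). The axes are cut at the ranges shown, so some genes lie outside. *CMPK2*, *OAS3* and *IFI6* sit at the lower right and *IFIT1* and *IFI44* in the lower left.

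The control groups differed from each other in a few members. DMSO arrays were higher than untreated arrays for *ISG15* at 0.50 (SE 0.10, adjusted p = 0.003) and *IFI16* at 0.38 (SE 0.08, adjusted p = 0.0055). They were also higher for *IFITM2* at 0.41 (SE 0.11, adjusted p = 0.017) and *SAMD9* at 0.54 (SE 0.15, adjusted p = 0.027), and lower for *DDX60* at -0.63 (SE 0.19, adjusted p = 0.04). These 5 of 27 members compare with 14.1% of all genes tested (8.14% higher and 5.98% lower). With arrays centred on their medians 6 members were higher in DMSO and 0 lower, and with quantile normalization 5 were higher and 0 lower. This comparison uses the same untreated and DMSO arrays as the ones above, so its values are not independent of them.

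Among other genes of the interferon pathway, more were called higher than lower with doxorubicin, by a margin that depended on the scaling. Of 90 genes listed from ligands to other interferon-induced genes, 85 had a single-gene probe set and 63 were tested. The list was chosen with earlier results of these data known, so its shares beside all genes are description only. With doxorubicin 29 of the 63 rose and 8 fell, which is 58.7% called, close to the 55.7% of all genes (30.1% higher and 25.6% lower). With nutlin-3 13 rose and 8 fell, 33.3% called, against 26.4% of all genes (12.5% higher and 13.9% lower). The median log2 changes of the 63 were 0.28 with doxorubicin and 0.05 with nutlin-3, against 0.08 and 0.01 over all genes tested. With arrays centred on their medians the doxorubicin counts were 19 up and 13 down.

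All 8 interferon genes on the list, from *IFNA1* to *IFNL2*, stayed under the filter. *IFNB1*, which encodes interferon beta, had signals of 16.9, 8.28 and 7.11 in doxorubicin arrays and 6.04, 2.85 and 4.82 in untreated arrays. These do not overlap but lie far below the filter signal of 49.3, as did those of nutlin-3 and DMSO arrays, so no change was read from them. Of 6 receptor genes tested, 2 rose and 1 fell with doxorubicin and 0 rose and 1 fell with nutlin-3. The shares called, 50% with doxorubicin and 16.7% with nutlin-3, lay below those of all genes. The type I receptor gene *IFNAR1* rose by 0.47 (SE 0.12) and the type II receptor gene *IFNGR1* by 0.40 (SE 0.09) with doxorubicin. The type III receptor gene *IFNLR1* had changes of -1.12 (SE 0.16, adjusted p = 1.4e-05) with doxorubicin and -0.50 (SE 0.16, adjusted p = 0.028) with nutlin-3.

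Of 11 signalling genes, 4 rose and 1 fell with doxorubicin, and 2 rose and 3 fell with nutlin-3. That is 45.5% with each agent, below the 55.7% of all genes called with doxorubicin and above the 26.4% with nutlin-3. *IRF3*, the factor that induces interferon beta downstream of the sensors, averaged 739.8 ± 164 in doxorubicin arrays and 349.6 ± 66.5 in untreated arrays (SD, n = 3), a change of 1.04 (SE 0.16, adjusted p = 3.2e-05). *STAT3* had changes of 0.79 (SE 0.08) with doxorubicin and 0.66 (SE 0.08) with nutlin-3, both called. The kinase gene *JAK1* rose by 0.25 with doxorubicin and 0.28 with nutlin-3, and *TYK2* rose by 0.31 with doxorubicin and had -0.08, not called, with nutlin-3. *PTPN2*, a phosphatase of JAK kinases, had changes of -0.73 (SE 0.08) with doxorubicin and -0.23 (SE 0.08) with nutlin-3. The JAK inhibitor gene *SOCS1* had changes of -0.31 (SE 0.20) with doxorubicin, not called, and -0.80 (SE 0.20) with nutlin-3, called. *SOCS3*, of the same family, had 0.16 (SE 0.13) with doxorubicin, not called, and -0.73 (SE 0.13) with nutlin-3, called.

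Of 13 genes of nucleic acid sensing, 5 rose and 1 fell with doxorubicin, and 2 rose and 1 fell with nutlin-3. The shares called, 46.2% with doxorubicin and 23.1% with nutlin-3, lay below those of all genes. *STING1*, the adaptor of DNA sensing in the cytoplasm, averaged 174 ± 22.4 in doxorubicin arrays and 80.3 ± 10.5 in untreated arrays (SD, n = 3), a change of 0.98 (SE 0.21, adjusted p = 0.00083). *RNASEH2C*, a subunit of the enzyme that removes RNA from DNA, rose by 0.98 with doxorubicin (SE 0.11), and *TLR3*, a receptor for double-stranded RNA, had changes of 2.19 (SE 0.18) with doxorubicin and 1.62 (SE 0.18) with nutlin-3. *SAMHD1*, which breaks down deoxynucleotides, had a change of -0.96 (SE 0.11, adjusted p = 9.1e-07) with doxorubicin. The kinase gene *TBK1* rose by 0.47 with doxorubicin and 0.62 with nutlin-3. *RNASEH2A*, the catalytic subunit gene, had a change of 0.25 (SE 0.12, adjusted p = 0.093) with doxorubicin and -0.72 (SE 0.12, adjusted p = 0.00024) with nutlin-3.

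Of 33 other interferon-induced genes, 18 rose and 5 fell with doxorubicin, and 9 rose and 3 fell with nutlin-3. The shares called were 69.7% with doxorubicin and 36.4% with nutlin-3, against 55.7% and 26.4% of all genes. The peptide transporter gene *TAP1* had changes of 3.33 (SE 0.10) with doxorubicin and 1.63 (SE 0.10) with nutlin-3. *SP110*, a nuclear body protein gene, rose by 1.65 with doxorubicin and 1.32 with nutlin-3. *HELZ2*, a helicase gene, rose by 1.57 with doxorubicin and had -0.06, not called, with nutlin-3. *GBP3*, a guanylate-binding protein gene, averaged 1239 ± 15 with nutlin-3 and 409 ± 31.5 in DMSO (SD, n = 3), a change of 1.57 (SE 0.11, adjusted p = 2.1e-08), and had -0.15 (SE 0.11, adjusted p = 0.28) with doxorubicin. *TRIM22*, an antiviral ubiquitin ligase gene, rose by 1.40 with doxorubicin and 1.53 with nutlin-3 (SE 0.09 each). *EIF2AK2*, which encodes the RNA-activated kinase PKR, had changes of -0.53 (SE 0.08, adjusted p = 4.9e-05) with doxorubicin and -0.53 (SE 0.08, adjusted p = 0.00013) with nutlin-3. *NMI*, whose protein binds STAT factors, and *LGALS3BP*, a galectin-binding protein gene, had changes of -0.54 and -0.43 with doxorubicin, and the scramblase gene *PLSCR1* and *DTX3L*, whose protein pairs with that of *PARP9*, of -0.51 and -0.32 with nutlin-3, all called lower.

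**Figure D4:**
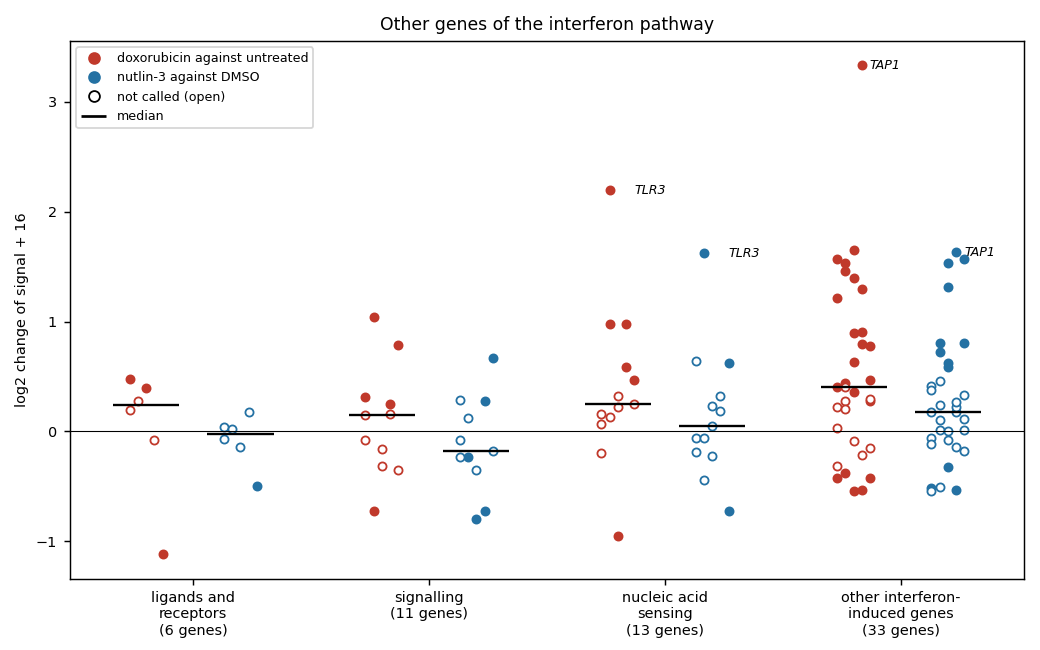
Log2 change of signal + 16 (y axis) of the 63 other genes of the interferon pathway that were tested, in 4 lists along the x axis, with doxorubicin against untreated cells (red) left of nutlin-3 against DMSO (blue). Filled points were called, open points were not, and black lines are list medians. *TAP1* is highest, at 3.33 with doxorubicin.

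The 11 members under the filter were *IRF7*, *HERC5*, *IFIT2*, *OAS1*, *OAS2*, *RSAD2*, *MX1*, *IFI27*, *IFI35*, *XAF1* and *EPSTI1*. They include genes often used to read out interferon, such as the GTPase gene *MX1*, the viperin gene *RSAD2* and *IFI27*. Their signals over all arrays ran from 1.53 to 136, and with the chosen probe set of each, doxorubicin and untreated arrays overlapped, as did nutlin-3 and DMSO arrays. Among their 8 other probe sets, all under the filter too, 1 of *RSAD2* had 8.71, 86.8 and 32.9 in doxorubicin arrays and 3.17, 6.67 and 7.03 in untreated arrays, without overlap. Another, of *OAS1*, had 44.5, 57.7 and 50.8 in nutlin-3 arrays and 42.2, 22.1 and 20.5 in DMSO arrays, also without overlap. *MX1* had 61.9, 68.3 and 30.4 in doxorubicin arrays and 64.2, 1.88 and 23.6 in untreated arrays. The chosen probe set of *RSAD2* had 56.1, 19.1 and 34.9 in doxorubicin arrays and 39.6, 21.8 and 1.64 in untreated arrays. *IFIT2* had 136, 84.4 and 38.7 in doxorubicin arrays and 37.2, 12.1 and 54.1 in untreated arrays. In all 3 the groups overlap and the arrays of each group scatter widely. The table holds no detection calls, so these genes were not called present or absent. When the filter was dropped, limma called 0 of the 11 with either agent at an adjusted p under 0.05, and 0 had an unadjusted p under 0.05.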

How the data were processed

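RNA of 12 U2OS samples was measured on 1 array each. The authors deposited linear intensity values, 1 for each probe set on each array. Per the submitters' processing notes they used MAS5, whose settings are not given in the sources used here. The mean after trimming lay at 500.06 to 500.07 on every array, and this scaling was kept. Of 54675 probe sets, 41097 had 1 gene symbol in the platform annotation, 1801 several and 11777 none listed, and symbols were updated by gene identifier against the RefSeq table of GRCh38.p14. Control probe sets and those with a mean log2 value under the 40th percentile (a signal of 49.3) were left out, and each gene took the probe set with the highest mean. Changes in log2(signal + 16) entered limma 3.58.1, run in R 4.3.3 (lmFit and eBayes with a trend) in a fit of 4 group means, adjusted by Benjamini-Hochberg over 13673 genes. The fit was tested on simulated data. The members and lists were chosen with earlier results of these data known. All 39 members are named, with every array for those called at 2-fold or more, and up to 3 called genes a list, direction and agent. With 3 arrays a group, precision is limited by that number.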

Additional observations from a re-analysis of the deposited data

How the results depend on the processing

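Counts of called members kept within 1.5 times their value in most alternatives, which covered scaling, pseudocounts of 1 and 64, filters, choice of probe set, variance models, control group, and each array left out. With at least 2-fold change required, 10 members were called with doxorubicin, 3 with nutlin-3, 11 pathway genes with doxorubicin and 5 with nutlin-3, since that rule asks for more. For DMSO against untreated cells 5 members were called, 3 with no filter, 3 with no intensity trend and 2 at an adjusted p under 0.01. At 2-fold limma called 0 there, with 1 at an unadjusted p under 0.05. With each array left out the counts were 14 to 16 (doxorubicin), 9 to 11 (nutlin-3), 11 to 14 (difference) and 2 to 6 (DMSO, with 2 without untreated replicate 1 or DMSO replicate 2 and 3 without DMSO replicate 3), and 34 to 38 and 20 to 22 pathway genes with doxorubicin and nutlin-3. The doxorubicin change of *PARP9*, 0.06, became -0.34 with the mean of its probe sets and -0.74 with a probe set of another type, and the difference of *IFI44*, -1.02, became 0.17 with such a probe set, since these settings read other probe sets. With the replicate block 16, 11, 13 and 5 members were called with doxorubicin, with nutlin-3, for the difference and for DMSO, and 38 and 23 pathway genes with doxorubicin and nutlin-3. Deviations of same-numbered arrays correlated at -0.0886 to 0.172, so the numbers were not taken as pairs. A fit of all probe sets at once, added after seeing the data, called 16, 9, 12 and 5 members and 36 and 20 pathway genes. No detection calls were used, so signals under about 49.3 limit what dim members can show.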

Other observations

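Many members lie side by side in the genome, and neighbours did not always move together. On chromosome 10, *IFIT1* fell with doxorubicin while *IFIT3*, separated from it by *IFIT1B* alone among protein-coding genes of the RefSeq table, rose, and *IFIT5* on its other side was not called. *IFI44* was called lower with both agents, and its direct neighbour *IFI44L* with nutlin-3 alone, though whether the doxorubicin changes of this pair differ was not tested. *SAMD9* and *SAMD9L*, also direct neighbours, were both called lower with doxorubicin and neither with nutlin-3. *CMPK2* was called with both agents, while its direct neighbour *RSAD2* stayed under the filter and was not tested, so whether this pair moved together was not read. The chosen probe set of *RSAD2* had means of 36.7 ± 18.6 in doxorubicin arrays and 21.0 ± 19 in untreated arrays (SD, n = 3). Its other probe set had 42.8 ± 40 and 5.62 ± 2.13, without overlap. *OAS3* likewise lies between *OAS1* and *OAS2*, which stayed under the filter and were not tested.

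Some probe sets are annotated to a member together with another gene and entered no test above by the rule. A probe set shared by *IFITM1* and *IFITM2* had means of 147 ± 22.3 in doxorubicin arrays and 113 ± 14.8 in untreated arrays, and 158 ± 87.3 in nutlin-3 arrays and 128 ± 27.2 in DMSO arrays (SD, n = 3). In the fit of all probe sets its changes were 0.33 (SE 0.29, adjusted p = 0.37) and 0.16 (SE 0.29, adjusted p = 0.78), neither called, whereas the *IFITM2* probe set was called with both agents. A probe set shared by *IRF9* and *RNF31* had changes of 0.15 and 0.03 and was not called either.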
